A study of Mus musculus with 8 samples.

Results

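The 72 probes described here gave at least 2-fold more signal in Dicer-knockout than in wild-type footpad skin of mouse embryos at E17.5. They were chosen by their E17.5 values among the 42006 non-control probes of a 2-colour Agilent expression array. A probe was a member when it was well above background in Cy3 on both knockout arrays of E17.5 and in Cy5 on all 8 arrays. It also carried no non-uniformity mark on any array, had a mean log2 ratio at least 1 higher in the knockout, and had both knockout arrays above both wild-type arrays at E17.5. Of 23959 probes that met the detection and quality conditions, 74 had a mean difference of at least 1 and 7675 had both knockout arrays above both wild-type arrays. Both held for 72, or 0.301% of the 23959. Because the E17.5 arrays chose the members, their E17.5 values are a description. The E16.5 arrays took part only through the Cy5 detection and quality conditions, and there the knockout was tested against the wild type.

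Footpad skin was dissected from C57BL6 embryos, and each replicate was RNA pooled from 3 to 5 embryos. The 4 groups were Dicer cKO at E16.5, wild type at E16.5, Dicer cKO at E17.5 and wild type at E17.5, with 2 arrays each. The labels call the knockout conditional, and the Cre driver and the cells it acts in are not given in the sources used here. Footpad RNA was labelled with Cy3 and a universal mouse reference with Cy5 on all 8 arrays, without a dye swap. Values are log2 ratios of footpad over reference signal, called M below. An M of 0 means equal signal, and a difference of 1 in M is 2-fold. Levels of different probes were not compared with each other.

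Dicer is the RNase III enzyme that cuts hairpin precursors into mature microRNAs. MicroRNAs pair through their seed, bases 2 to 8, with sites in messenger RNAs and lower the stability or translation of those messages. Mouse footpads carry the eccrine sweat glands of the animal, which form as epidermal buds that grow down into the dermis before birth. The study asked, by its title, about the need for microRNAs after the glands have been induced.

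The array tables give each probe an identifier and a 60-base sequence but no gene name, and 0 of the 72 member identifiers occurred among the 49997 genes of the RefSeq table (GRCm38.p6). The members are therefore named by identifier and shown by sequence. For the same reason the level of Dicer itself and the markers of skin were not checked. The following 6 probes had the largest measured E17.5 differences in M and are printed 5′ to 3′ in that order. For the first 3 of them the wild-type signal at E17.5 was not well above background, so the size of their measured differences is uncertain. Bounds on their folds are given below, and their rank is only that of the measured M.
Z00058004-1: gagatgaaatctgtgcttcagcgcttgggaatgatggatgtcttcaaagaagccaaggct
Z00055592-1: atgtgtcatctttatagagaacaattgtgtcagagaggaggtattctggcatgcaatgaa
Z00005799-1: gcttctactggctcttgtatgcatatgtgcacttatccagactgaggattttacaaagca
Z00039229-1: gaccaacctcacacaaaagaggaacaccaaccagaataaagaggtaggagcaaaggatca
Z00040026-1: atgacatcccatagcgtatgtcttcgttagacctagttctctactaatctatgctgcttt
Z00029389-1: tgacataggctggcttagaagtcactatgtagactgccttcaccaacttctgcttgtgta

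The next 4 probes are shown because, with Z00039229-1, they had the smallest E16.5 p-values of the members.
Z00066487-1: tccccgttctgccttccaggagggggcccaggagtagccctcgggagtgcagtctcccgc
Z00028493-1: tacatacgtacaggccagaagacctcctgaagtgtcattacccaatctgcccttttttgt
Z00064699-1: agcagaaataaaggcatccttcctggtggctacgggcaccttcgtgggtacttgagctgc
Z00076265-1: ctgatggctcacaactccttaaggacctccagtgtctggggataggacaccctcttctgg

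At E17.5 the members' knockout minus wild-type differences ran from 1.00 to 3.48 with a median of 1.16, against a median of -0.00 over 26475 probes detected in at least 1 group. As measured, 15 of the 72 were over 1.5 and 6 were at least 2, of which 3 were well above background on both wild-type arrays. The separation between the lowest knockout array and the highest wild-type array had a median of 0.90. It was at least 1 in 27 members and under 0.5 in 7. The members just inside the threshold were Z00074783-1, Z00054050-1 and Z00031456-1, with differences of 1.00, 1.00 and 1.01. Just outside lay Z00026567-1, Z00045453-1 and Z00047261-1, with differences of 1.00, 1.00 and 0.99 that fell short of 1 before rounding. Membership depended on each array. Under the same rule without knockout replicate 1 of E17.5, 108 probes qualified and 55 of the 72 were among them, and without knockout replicate 2, 141 qualified and 59 were among them. Without wild-type replicate 1, 80 qualified and 57 were among them, and without wild-type replicate 2, 101 qualified and 64 were among them.

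Z00058004-1 had the largest measured E17.5 difference. Its M was -0.53 and -1.67 on the knockout arrays and -4.36 and -4.80 on the wild-type arrays of E17.5. At E16.5 it was 0.06 and -0.27 in the knockout and -0.33 and -0.06 in the wild type. The wild-type arrays of E17.5 were thus low against all 6 others, while the genotypes overlapped at E16.5. Its Cy3 signal was not well above background on either wild-type array of E17.5, so the E17.5 fold is given only as a bound of at least 4.25-fold. Bounds of this kind use Cy3 levels after Aquantile scaling of the processed signals, with the lowest signal well above background as the floor. Without dye swaps they are open to dye bias. They hold for the processed signals only. With the background modelled anew by normexp, followed by loess, the E17.5 difference in M was 0.84 for Z00058004-1 and 0.50 for Z00055592-1. These differences are smaller than the bounds given for the 2 probes.

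Z00055592-1 was at 0.07 and 0.15 in the knockout and -1.94 and -2.73 in the wild type at E17.5, at least 2.76-fold higher in the knockout. At E16.5 it was 1.17 and 0.84 against 0.15 and 0.48. Both knockout arrays lay above both wild-type arrays at both stages. Z00005799-1 was at -3.00 and -2.42 against -4.86 and -5.04 at E17.5, at least 3.70-fold higher in the knockout. Its E16.5 values were -0.77 and -0.996 against -0.95 and -0.74, where the genotypes overlapped.

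Z00039229-1 stood apart through its E16.5 values. Its M was 1.00 and 1.01 in the knockout and -1.08 and -1.37 in the wild type at E16.5. At E17.5 it was 1.37 and 1.52 in the knockout and -1.62 and 0.07 in the wild type, 4.66-fold higher in the knockout. The mean difference was 2.23 at E16.5 and 2.22 at E17.5, although the wild-type arrays of E17.5 were far apart (mean -0.78 ± 1.19 SD, n = 2).

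Z00040026-1 and Z00029389-1 had more signal in footpad than in the reference at E16.5 in both genotypes, and a lower M on every E17.5 array. Z00040026-1 was at 5.19 and 5.16 in the knockout and 5.28 and 5.19 in the wild type at E16.5, then at 2.69 and 3.62 against 1.07 and 1.08 at E17.5. Its E17.5 difference was 4.24-fold. Z00029389-1 was at 3.53 and 3.39 against 3.27 and 3.45 at E16.5, then at 0.17 and 0.75 against -1.52 and -1.60 at E17.5, a 4.04-fold difference. In both probes the genotypes lay close together in M at E16.5 and apart at E17.5.

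The next 4 members in order of E17.5 difference followed several courses. Z00025473-1 was at -4.02 and -3.90 in the knockout and -6.19 and -5.53 in the wild type at E17.5, at least 3.44-fold, after -1.84 and -1.98 against -2.52 and -2.44 at E16.5. Z00024228-1 was at -1.56 and -1.93 against -3.84 and -3.45, at least 3.55-fold, after -1.62 and -1.89 against -2.74 and -2.50. In these 2 probes the knockout arrays lay above the wild-type arrays at both stages. Z00030098-1 was at 2.73 and 0.83 against 0.44 and -0.55, with Cy3 well above background on only 1 of the 2 wild-type arrays, after 0.84 and 0.91 against 0.93 and 0.91. Z00059577-1 was at -0.06 and -0.90 against -2.18 and -2.44, a 3.56-fold difference, after -0.66 and -0.83 against -0.31 and -0.02. The E17.5 difference of Z00030098-1 rested mostly on knockout replicate 1, and Z00059577-1 was lower in the knockout at E16.5.

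In 4 members the knockout arrays of E17.5 were more than 1 apart. They were Z00030098-1, Z00058004-1, Z00023836-1 and Z00033841-1, and knockout replicate 1 was the higher array in each. Z00023836-1 was at -1.25 and -3.12 against -3.14 and -3.44, so the lower knockout array exceeded the higher wild-type array by 0.03. Z00033841-1 was at 1.87 and 0.28 against -0.24 and 0.26, a margin of 0.02. Another 2 probes met the mean difference but overlapped and were not members. Z00071450-1 had knockout values of 3.09 and -0.53, and Z00016441-1 had wild-type values of 2.26 and -3.11. Z00023836-1 and Z00033841-1, like other probes outside the naming rule given with the methods, were singled out after their values were seen.

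The members were dim in footpad and reference alike. Their mean log2 Cy3 signal had a median of 7.95, against 9.82 over all probes tested, and their mean log2 Cy5 signal had a median of 8.02, against 9.82. In the wild type at E17.5, 59 members were well above background on both arrays, 4 on 1 array and 9 on neither. For those 9 the E17.5 bounds ran from at least 2.08-fold for Z00067386-1 to at least 4.25-fold for Z00058004-1. None had a saturated spot. The Cy5 reference differed little by genotype at E17.5: its knockout minus wild-type difference had a median of -0.19 in the members and -0.23 over all probes tested. The highest was Z00033785-1, whose Cy5 signal was 0.94 higher on the knockout arrays, which lowers its M there. The lowest was Z00049755-1, at -0.65, which raises its M in the knockout, and its difference in Cy3 alone was 0.98. With the Cy3 signal alone, 65 of the 72 kept a difference of at least 1. With the background modelled anew by normexp, the members' E17.5 differences ran from 0.24 to 2.32 with a median of 0.79, and 20 of the 72 met the rule.

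At E16.5, on the arrays the rule did not use for the contrast, many members already had higher values in the knockout, although no single probe passed the test across the array. limma on the 4 E16.5 arrays, with Benjamini-Hochberg adjustment over 26475 probes, called 0 higher and 0 lower, or 0%, at an adjusted p of 0.05, and so 0 of 72 members. The lowest adjusted p of any probe was 0.0595. At an unadjusted p of 0.05, 4814 probes passed, and 36 members were higher and 3 lower. Over all probes tested, 8.69% were higher and 9.5% lower. Both knockout arrays lay above both wild-type arrays in 41 members, or 56.9%, against 27.8% of all probes tested. They lay below in 8 members, against 26.7%, and the genotypes overlapped in 23.

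The members' E16.5 differences ran from -0.70 to 2.23, with a median of 0.27 against 0.00 for all probes tested. The difference was at least 0.5 in 32 members, or 44.4%, against 0.831% of all probes tested. It was at least 1 in 8 members, or 11.1%, against 0.0755%. The array held 20 tested probes past that size, so these 8 were 8 of 20. All probes tested were brighter in the median than the members, and these shares were not matched for brightness. In 30 members the E16.5 difference was within 0.25 of 0. On both slides the knockout lay at array positions 1 and 2 and the wild type at positions 3 and 4, so genotype and array position cannot be told apart at either stage.

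The 10 members with the smallest E16.5 p-values were higher in the knockout at E16.5. Z00066487-1 was at 3.16 and 3.15 in the knockout and 1.56 and 1.39 in the wild type, a 3.21-fold difference of 1.68 on the log2 scale (SE 0.08; adjusted p from limma, 0.106). At E17.5 it was at 4.04 and 3.22 against 1.30 and 2.41. Its genotypes did not overlap at either stage. For Z00039229-1 the E16.5 difference was 4.69-fold, 2.23 on the log2 scale (SE 0.11; adjusted p from limma, 0.113). Over the 18 alternative settings the limma adjusted p of Z00066487-1 ran from 0.00168 to 0.325, and that of Z00039229-1 from 0.00235 to 0.325.

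Z00028493-1 was at 1.31 on both knockout arrays and at -0.40 and -0.77 in the wild type at E16.5, 3.72-fold higher in the knockout. At E17.5 it was at 0.50 and 0.56 against -1.07 and -0.40, so its difference was 1.90 at E16.5 and 1.27 at E17.5. Z00076265-1 was at 0.29 and 0.30 against -1.29 and -1.01 at E16.5, a 2.72-fold difference, and at 0.33 and 0.25 against -0.48 and -1.25 at E17.5. Z00064699-1 was at 1.74 and 1.85 against 0.56 and 0.34 at E16.5, a 2.53-fold difference, and at 1.78 and 1.74 against 0.33 and 0.95 at E17.5. These 3 probes had the larger mean difference at the earlier stage. Whether the difference changed between stages was not tested, since the rule had fixed it at E17.5.

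The other 5 of the 10 had smaller E16.5 differences. Z00063926-1 differed by 1.02 at E16.5 and was not well above background in the wild type at E17.5, where its bound was at least 2.19-fold. Z00030712-1 differed by 0.88, Z00064311-1 by 0.83, Z00032319-1 by 0.70 and Z00025459-1 by 0.49. The limma adjusted p of these 5 ran from 0.141 to 0.143. The tightest was Z00025459-1, at 0.88 and 0.90 against 0.43 and 0.36 at E16.5 and at 0.68 and 0.64 against -0.41 and -0.40 at E17.5. Its replicates lay close together in every group.

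How many members were called at E16.5 turned on the fit. With all 8 arrays in one limma model, so that the spread was estimated over 4 groups, 63 probes, or 0.238%, were called higher, and 8 members were among them. This fit called 142 probes, or 0.536%, lower, and none was a member. The 8 were Z00000770-1, Z00011003-1, Z00015212-1, Z00025459-1, Z00026158-1, Z00028493-1, Z00032319-1 and Z00051493-1. This spread rests partly on the arrays that the rule used. With normexp background and loess, 160 probes, or 0.604%, were called higher, and 22 members were among them. Called lower were 302 probes, or 1.14%, and 1 member, Z00074763-1, a share near that of the array.

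Lower in the knockout at E16.5 by at least 0.5 were 3 members, which then were higher at E17.5. Their values ran almost in parallel over all 8 arrays. Z00012000-1, with the lowest E16.5 difference, was at -0.67 and -0.84 in the knockout and -0.21 and 0.09 in the wild type at E16.5, a difference of -0.70 (adjusted p from limma, 0.175). At E17.5 it was at 0.04 and -0.87 against -1.76 and -2.05. Z00059577-1, given above, had an E16.5 difference of -0.59. Z00074763-1 was at -0.67 and -0.83 against -0.27 and -0.01 at E16.5, a difference of -0.61, and at -0.15 and -0.88 against -1.69 and -1.89 at E17.5. In all 3, knockout replicate 1 of E17.5 was the highest of the 4 knockout arrays, and the wild-type arrays of E17.5 were the lowest of the 8. The last 12 bases of Z00012000-1 are the first 12 of Z00059577-1, shown in capitals, while Z00074763-1 shared no run of 20 bases with either.
Z00012000-1: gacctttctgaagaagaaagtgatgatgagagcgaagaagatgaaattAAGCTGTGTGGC
Z00059577-1: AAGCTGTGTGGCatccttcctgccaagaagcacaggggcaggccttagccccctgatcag
Z00074763-1: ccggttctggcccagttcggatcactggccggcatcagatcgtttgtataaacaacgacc

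Across stages, wild-type values were lower at E17.5 than at E16.5 in 58 of the 72 members, and knockout values in 29. E16.5 arrays were on 1 slide and E17.5 arrays on the other, so stage and slide cannot be told apart, and these changes share the E17.5 arrays with the rule and carry no test. The wild-type change from E16.5 to E17.5 had a median of -0.62 and ran from -4.92 to 0.76. The knockout change had a median of 0.11 and ran from -3.63 to 1.54. Over all probes tested both medians were -0.02. In 31 members the wild-type mean was lower and the knockout mean higher at E17.5, and in 27 both were lower. In 12 both were higher, and in 2 the wild type was higher and the knockout lower. Shares over all probes tested are not given for these counts of stage changes or for those below. The rule asks for wild-type values under knockout values at E17.5, so the counts only describe the members.

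The wild type was lower by at least 1 at E17.5 in 26 members, and in none was it higher by 1. Of these, 7 were not well above background on both wild-type arrays of E17.5, so the size of their measured wild-type changes is uncertain. In the 26 the median measured stage change was -2.17 in the wild type and -0.88 in the knockout, and 16 of them had an E16.5 difference within 0.25 of 0. In 11 of the 26 the knockout was also lower by at least 1. Z00029389-1 was 30.2-fold lower at E17.5 in the wild type and 8.01-fold lower in the knockout. Z00041697-1 was at 5.80 and 5.54 in the knockout and 5.82 and 5.58 in the wild type at E16.5, then at 2.03 and 2.68 against 1.12 and 0.64. Z00040026-1 was 17.9-fold lower in the wild type and 4.05-fold lower in the knockout, and Z00005799-1 was 3.54-fold lower in the knockout and not well above background in the wild type at E17.5. In these 4 probes the genotypes lay close together in M at E16.5, and at E17.5 both were far below that level, the wild type more so. With Cy3 alone, the E16.5 differences were -0.60 (SE 0.52) for Z00005799-1 and -0.33 (SE 0.06) for Z00040026-1. For Z00029389-1 the difference was 0.07 (SE 0.15).

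The other members of this kind were Z00025473-1, Z00027047-1, Z00023279-1, Z00022669-1, Z00076778-1, Z00037890-1 and Z00074556-1. Z00025473-1 was above background on neither wild-type array of E17.5 and Z00023279-1 on only 1, so no fold is given for them. In the other 5 the wild-type values were between 3.57-fold, for Z00074556-1, and 19.7-fold, for Z00027047-1, lower at E17.5.

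The rule fixes the E17.5 difference, so a member with little difference at E16.5 must have a larger gap between its stage changes, and the following medians only describe how that gap was made up. The 32 members with an E16.5 difference of at least 0.5 had a median stage change of -0.14 in the wild type and 0.16 in the knockout. The 30 members with an E16.5 difference within 0.25 of 0 had medians of -1.23 and -0.18. Members with higher knockout values by at least 1 at E17.5 than at E16.5 were Z00023938-1, Z00003132-1, Z00023813-1, Z00023836-1 and Z00008952-1. Z00023938-1 was at -1.91 and -2.26 in the knockout and -2.40 and -2.30 in the wild type at E16.5, and at -0.39 and -0.70 against -2.28 and -1.63 at E17.5. Z00023813-1 was at 1.42 and 1.08 against 0.50 and 0.89, then at 2.80 and 2.41 against 1.37 and 1.54. In Z00023813-1 both genotypes were higher at E17.5.

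Z00033785-1 and Z00005714-1 had far more signal in footpad than in the reference. Z00033785-1 was at 8.30 and 7.76 in the knockout and 7.35 and 7.52 in the wild type at E16.5, and at 8.21 and 7.94 against 6.33 and 6.34 at E17.5. Z00005714-1 was at 4.71 and 4.94 against 4.13 and 4.02 at E16.5, and at 4.74 and 5.13 against 3.33 and 3.00 at E17.5. Knockout values were nearly level between stages, and the wild-type arrays of E17.5 were the lowest.

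Some members share sequence with other probes, which gives a second reading of the same stretch. Z00030723-1 and Z00073972-1 share the 32 bases in capitals.
Z00030723-1: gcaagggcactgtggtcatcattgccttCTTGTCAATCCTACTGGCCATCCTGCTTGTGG
Z00073972-1: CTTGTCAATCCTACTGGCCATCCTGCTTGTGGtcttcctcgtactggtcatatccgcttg

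Their values ran together. At E17.5 Z00030723-1 was at 2.16 and 2.34 in the knockout and 0.94 and 0.91 in the wild type, and Z00073972-1 at 2.15 and 2.31 against 0.95 and 0.85. At E16.5 their differences were -0.00 and 0.01. As they share sequence, they are not independent members.

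Another 3 members share at least 20 bases with a probe that is not a member. Z00015212-1 shares 33 bases with Z00035636-1, whose differences were 0.83 at E17.5 and 0.46 at E16.5, against 1.18 and 0.63 for the member. Z00025473-1 shares 52 bases with Z00074877-1, whose differences were 1.14 and 0.46. Z00041697-1 shares 35 bases with Z00075312-1, whose differences were 1.46 and 0.02. The last 2 partners failed the rule only on its detection and quality conditions, which were not told apart here. All 3 had the direction of their member at E17.5.

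The letters CCCTAA or the reverse TTAGGG, the repeat unit of vertebrate telomeres, occurred in 8 members, or 11.1%, against 2.11% of all probes tested on either strand. The longer CCCTAACC, which contains it, occurred in 6 members, or 8.33%, against 0.166%, which is 44 probes. These motifs were looked for after the sequences had been seen. The 8 probes are shown with the unit in capitals.
Z00049755-1: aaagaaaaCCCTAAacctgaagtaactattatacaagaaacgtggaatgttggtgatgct
Z00013800-1: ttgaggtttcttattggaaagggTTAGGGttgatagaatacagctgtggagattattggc
Z00003132-1: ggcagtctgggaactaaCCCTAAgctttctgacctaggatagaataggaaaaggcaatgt
Z00077901-1: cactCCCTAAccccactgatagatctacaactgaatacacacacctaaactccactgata
Z00030602-1: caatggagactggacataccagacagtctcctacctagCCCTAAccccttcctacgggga
Z00032151-1: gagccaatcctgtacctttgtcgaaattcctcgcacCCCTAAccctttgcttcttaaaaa
Z00033234-1: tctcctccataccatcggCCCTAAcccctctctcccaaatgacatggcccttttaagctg
Z00054050-1: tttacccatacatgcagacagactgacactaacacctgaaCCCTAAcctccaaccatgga

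Each holds the letters in capitals only once. The bases beside them can continue the repeat, as in Z00013800-1, Z00003132-1 and Z00032151-1, and 6 of the probes share the longer form counted above. The E17.5 differences of the 8 ran from 1.00 to 1.43, and their E16.5 differences from -0.21 to 0.04. None of the 8 thus had an E16.5 difference of at least 0.5, but this depends on where the repeat is cut. The shifted form CTAACCC occurred in 9 members, or 12.5%, against 0.457% of all probes tested. It lies also in Z00023057-1, Z00063013-1 and Z00030451-1, which are not among the 8. Z00023057-1 and Z00063013-1 had E16.5 differences of at least 0.5, while that of Z00030451-1 was within 0.25 of 0. Replicate 1 exceeded replicate 2 in 1 of the 8 in the knockout at E16.5, in 8 in the wild type at E16.5, in 8 in the knockout at E17.5 and in 2 in the wild type at E17.5. The same held for 36, 46, 45 and 33 of the 72 members, and for 47.9%, 51.7%, 48.4% and 48.3% of all probes tested, in that order. Z00003132-1, for example, was at 1.14 and 1.76 in the knockout and 2.22 and 1.11 in the wild type at E16.5, and at 2.80 and 2.17 against 1.29 and 1.36 at E17.5. Its E16.5 arrays spread about as widely within a genotype as its E17.5 groups stood apart.

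Seed matches to skin microRNAs were about as common in the members as on the array. Sites were the reverse complement of bases 2 to 8 of the mature sequence, searched on the probe strand for 26 microRNAs found in the RefSeq table. At least 1 site lay in 10 members, or 13.9%, against 13.4% of all probes tested. Sites for let-7, miR-17, miR-200b, miR-203 and miR-205 occurred in 0 members. Over all probes tested their shares were 0.408%, 0.476%, 0.559%, 0.672% and 0.616%, in that order. Sites for miR-19b, miR-200a and miR-30a each occurred in 1 member, or 1.39%, against 0.510%, 0.861% and 0.616%. The most frequent was the miR-24 site CTGAGCC, in Z00025473-1, Z00055928-1 and Z00022669-1, which is 4.17% of the members against 0.619%. Its microRNA is shown with the seed in capitals.
mmu-miR-24-3p: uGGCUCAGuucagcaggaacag

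A 60-base probe covers a small stretch of a transcript, so these counts say nothing of sites elsewhere in the same message. Base composition was that of the array: the median GC content was 45.0% in the members and 45.0% over all probes tested. A stop codon in each of the 3 forward frames occurred in 19.4% of the members against 17.2%, and the polyadenylation signal AATAAA in 11.1% against 7.56%. No member shared 20 bases with any of 1005 microRNA hairpins.

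A single member was placed in the genome through the promoter windows of RefSeq (GRCm38.p6). Of the 60 bases of Z00038074-1, 54 lie on the plus strand at chr9:50505002-50505055, in the window around the start of Plet1os. The stretch is also inside the span of the protein-coding gene Plet1 (chr9:50494525-50505639), and the table used does not say whether it is exonic or intronic. Plet1 is on the plus strand, as the probe is. Plet1os is on the minus strand and its span ends at 50504805, so the stretch lies upstream of its start. Z00038074-1 was at 3.59 and 3.65 in the knockout and 3.63 and 3.52 in the wild type at E16.5, a difference of 0.04, and at 2.89 and 3.14 against 1.99 and 1.80 at E17.5, a difference of 1.12. Both genotypes were lower at E17.5, the wild type more so.

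The arrays were of similar quality. Between 62.0% and 72.0% of probes were well above background in Cy3, and between 71.1% and 79.8% in Cy5. Replicates of a group correlated over all probes tested with Pearson's r from 0.987 in the knockout at E17.5 to 0.993 in the wild type at E16.5. Genes are not independent replicates, so these values only describe the arrays. With 2 arrays a group, the number of arrays limits the precision of every difference given.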

How the data were processed

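The deposited scanner files hold intensities that Agilent Feature Extraction had background-subtracted, spatially detrended and dye-normalized, per the file headers. The deposited series matrix is on a log10 scale and equals log10 of Cy3 over Cy5 processed signal plus the mean log10 Cy5 signal to within 0.00016 over 24645 probes, with column medians of 2.23 to 2.24 and 280 missing values, so its scale and direction follow the scanner values. M was log2 of Cy3 over Cy5 processed signal, averaged over the spots of a probe, with no further normalization.

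Tested were 26475 of 42006 probes: well above background in Cy5 on all 8 arrays, without non-uniformity marks, and with Cy3 well above background in both replicates of 1 group or more. Knockout and wild type at E16.5 were compared with limma 3.58.1 in R 4.3.3 (two-sided, Benjamini-Hochberg), checked on simulated data. The labels call the replicates biological. Alternatives covered background correction, centring, channel, filters, prior, array weights, a replicate block and leaving out arrays.

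Named were the 10 members with the largest E17.5 difference, the 10 with the smallest E16.5 p, the lowest E16.5 difference, and 3 probes on each side of the threshold. The members and lists were chosen with earlier results of these data known. Gene lists and a planned match to protein sequences need gene names or a protein table and were not used here.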

Additional observations from a re-analysis of the deposited data

Results flagged for a closer look

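In 8 members both knockout arrays lay below both wild-type arrays at E16.5, although the rule places them above at E17.5. Their E16.5 knockout minus wild-type differences in M were -0.70 for Z00012000-1, -0.61 for Z00074763-1, -0.59 for Z00059577-1, -0.25 for Z00076778-1, -0.24 for Z00033841-1, -0.21 for Z00013800-1, -0.0623 for Z00040026-1 and -0.0435 for Z00030098-1. Whether the difference changed between the stages was not tested, because the rule fixed the direction at E17.5. At E16.5 both knockout arrays lay below both wild-type arrays in 26.7% of all probes tested.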

How the results depend on the processing

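The E16.5 comparison called 0 probes and 0 members as reported. It called 205 probes and 8 members with all 8 arrays in the fit. With normexp (offset 50) without the marked spots it called 462 and 23, with every spot 113 and 10, and with offset 10 it called 20 and 6. Median centring, an adjusted p of 0.1 as threshold, and only probes above background on all 4 E16.5 arrays each called 1 probe and 0 members. Leaving out each E16.5 array in turn called 0 to 0 probes and 0 to 0 members. The Cy3 signal alone, the series matrix, no Cy3 filter, a trended robust prior and array weights also called 0. Median E16.5 differences of the members ran from 0.19 to 0.33 over the settings.

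The number of probes meeting the rule was 72 as reported and 20 with normexp, all 20 among the 72. It was 59 to 92 under the other settings, and 80 to 141 when 1 E17.5 array was left out. Why the counts moved was not tested. Same-numbered arrays did not deviate together (correlations over probes of -0.0909 for E16.5 arrays, -0.0222 for E17.5 arrays). These values gave no sign that the replicate numbers pair the samples. They cannot exclude pairing, because each group holds few arrays and probes are not independent replicates. A replicate block called 0 probes on 4 arrays, and 1 probe and 0 members on 8. Dim members rest on signals near background: 13 of 72 were not well above background on all 8 arrays.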
